A study of Mus musculus with 28 samples.

Results

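Small RNA libraries from plasma extracellular vesicles (EVs, membrane-bound particles that cells release into blood) were compared between unstimulated Klotho heterozygous mice and unstimulated wild-type mice. The members were chosen by their genotype and treatment labels: 8 libraries labelled KLOTHO HET and Control (KlHET control: J3510, J3515, J3517, J3523, J3526, J3528, J3549 and J3578) and 6 labelled WT and Control (WT control: A3198, A3200, A3202, A3204, A3206 and A3208), 14 of the 28 libraries of the study. KlHET mice came from the strain B6;129S5-Kltm1Lex/Mmucd and carried 1 disrupted copy of Kl, and both genotypes were bred in the authors' colony. Every control mouse, KlHET and WT, received repeated isoflurane anesthesia without stimulation. The remaining libraries came from 8 KlHET and 6 WT mice that received neuromuscular electrical stimulation (NMES) of the hind legs under the same anesthetic, and they served as separate mice of the same genotypes. Mice of both genotypes were 2 months old, and their sex was not given in the sources used here.

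The count table held 18710 entries, of which 15384 were circular RNAs (circRNAs), 1240 microRNAs (miRNAs), 464 tRNAs, 863 small nucleolar RNAs (snoRNAs) and 753 small nuclear RNAs (snRNAs), besides 6 of other kinds. Total counts ran from 764816 to 1574440 in KlHET control libraries and from 693735 to 3389206 in WT control libraries. All KlHET libraries carry names starting with J and all WT libraries names starting with A, so genotype and library series cannot be told apart. In KlHET control library J3517, 65.7% of the miRNA counts belonged to the single entry miR-8117, and in WT control library A3206 tRNAs held 63.3% of all counts, against 16.3% to 25.02% in the other WT control libraries. Among KlHET control libraries the tRNA share reached 36.5% in J3578, 39.8% in J3528 and 43.6% in J3549. The counts of called entries in each RNA class are also given without both J3517 and A3206. The RNA of the Kl transcript itself is not measured by such libraries, so the genotype labels have no check in these data.

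Klotho is a transmembrane protein made mainly in the kidney tubule and the choroid plexus, where it acts as a co-receptor for the hormone FGF23 and is also shed into the circulation. Mice without Klotho age prematurely. miRNAs are short RNAs that guide Argonaute proteins to messenger RNAs, and bases 2 to 8 of a miRNA, its seed, largely set which messages it pairs with. Plasma EVs carry miRNAs from blood cells, vessel wall, liver and other tissues together with fragments of tRNAs and spliceosomal RNAs. In such bulk material, fewer vesicles from a cell type and less of an RNA per vesicle cannot be told apart.

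The mature sequences of the miRNAs on which the comparison turned are given 5′ to 3′ with the seed in capitals. They come from RefSeq on GRCm38.p6. The first 5 are shown because miR-10a, miR-10b and miR-100 were lower in KlHET control EVs while their near relatives miR-99a and miR-99b were not called different.
miR-10a-5p: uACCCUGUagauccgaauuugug
miR-10b-5p: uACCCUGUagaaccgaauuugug
miR-100-5p: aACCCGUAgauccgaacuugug
miR-99a-5p: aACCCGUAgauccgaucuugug
miR-99b-5p: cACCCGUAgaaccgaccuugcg
let-7f-5p: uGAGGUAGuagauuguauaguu
miR-146b-5p: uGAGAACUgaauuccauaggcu
miR-203-3p: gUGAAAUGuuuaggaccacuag
miR-326-3p: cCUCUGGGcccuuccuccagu
miR-221-3p: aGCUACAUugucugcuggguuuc
miR-192-5p: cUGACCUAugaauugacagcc

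Counted from 1 at the 5′ end, miR-10a-5p and miR-10b-5p differ by U12A, outside the seed, and miR-100-5p and miR-99a-5p differ by A16U. miR-10a-5p lies in Mir10a on chr11:96317186-96317208 (+) and miR-10b-5p in Mir10b on chr2:74726074-74726096 (+), both inside Hox gene clusters. miR-100-5p is encoded by Mir100 on chr9:41531437-41531458 (+). The sequence of let-7f-5p occurs in Mirlet7f-1 on chr13:48537889-48537910 (-) and in Mirlet7f-2 on chrX:151912353-151912374 (+), so its reads cannot be assigned to either locus. miR-326-3p is encoded on chr7:99552328-99552348 (+) and miR-221-3p on chrX:19146307-19146329 (-).

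In KlHET control EVs, miR-10a-5p and miR-10b-5p were each more than 4-fold lower than in WT control EVs by the fitted log2 differences, and miR-100-5p, let-7f-5p and let-7b-5p were lower with no overlap between the groups. Levels are given as CPM, counts per 1000000 counts of the RNA class after TMM scaling, a library correction in the edgeR package. TMM sets the scale by the bulk of the entries, so the CPM of a library dominated by 1 entry can sum to more than its nominal total. Differences are log2(KlHET control / WT control) with their standard error (SE), and an entry was called when the edgeR quasi-likelihood p, adjusted by Benjamini-Hochberg over its RNA class, was under 0.05. Of 129 miRNA entries with enough counts to test, 11 (8.53%) were called higher and 21 (16.3%) lower in KlHET control libraries. Without J3517 and A3206, 8 of 133 (6.02%) were called higher and 12 (9.02%) lower.

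miR-10a-5p, a Hox-cluster miRNA, had a lowest, median and highest level of 4534, 7531 and 13580 CPM in KlHET control libraries, against 23552, 39966 and 52261 CPM in WT control libraries. Its log2 difference was -2.21 (SE 0.27, adjusted p = 6.4e-07). Every KlHET control library lay below every WT control library. Its paralog miR-10b-5p had 5691, 7911 and 9833 CPM in KlHET control libraries, against 24763, 34335 and 41254 CPM in WT control libraries, a difference of -2.10 (SE 0.27, adjusted p = 8.4e-07), and these ranges were separate too. The NMES libraries come from other mice, but the same fit used them for the filter, the scaling and the estimate of spread. Among them, miR-10a-5p had 4275, 6497 and 9315 CPM in KlHET and 22204, 30918 and 45539 CPM in WT libraries (log2 difference -2.24, adjusted p = 2.3e-07). For miR-10b-5p the NMES levels were 2797, 5989 and 10968 CPM in KlHET and 26244, 36989 and 53951 CPM in WT libraries (-2.60, adjusted p = 2.3e-08). The pair was therefore lower in KlHET libraries under both conditions, with separate ranges each time.

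miR-100-5p, which shares most of its sequence with the miR-10 pair but has another seed, had 282, 1502 and 2988 CPM in KlHET control libraries, against 3987, 5768 and 21966 CPM in WT control libraries. The log2 difference was -2.36 (SE 0.43, adjusted p = 0.00021), and the ranges did not overlap. Among the relatives with the same seed, miR-99a-5p differed by -0.43 (adjusted p = 0.36) and miR-99b-5p by -0.84 (adjusted p = 0.051), neither called. Whether miR-100-5p differed from these relatives in its response was not tested. In the NMES libraries miR-100-5p had 650, 2040 and 3536 CPM in KlHET, against 3800, 4923 and 6094 CPM in WT libraries, ranges that were also separate, and its difference of -1.30 was not called (adjusted p = 0.068).

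**Figure D1:**
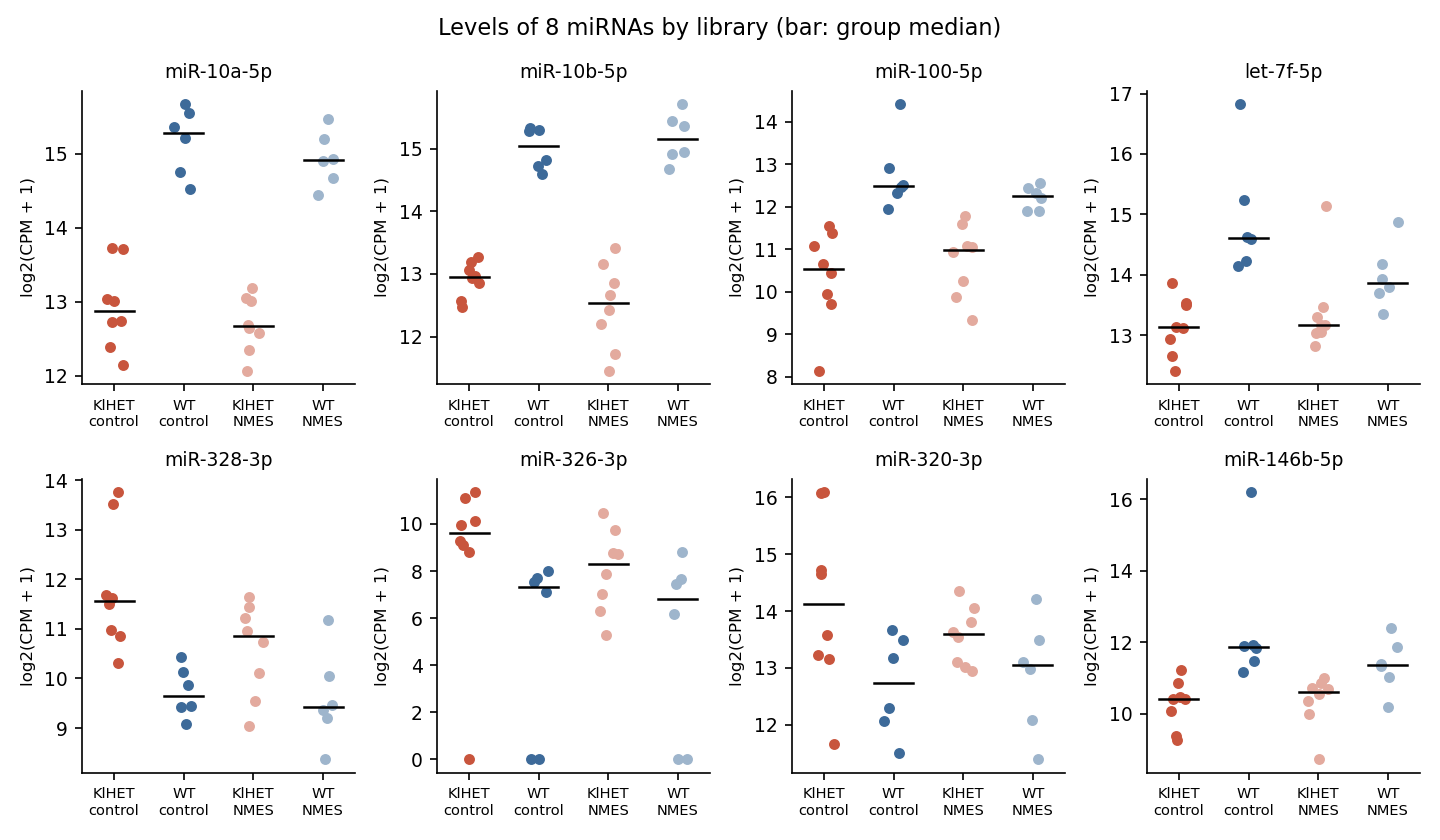
Levels of 8 miRNAs in each of the 28 libraries, as log2(CPM + 1), in the KlHET control, WT control, KlHET NMES and WT NMES groups; each point is a library and each bar the group median. miR-10a-5p and miR-10b-5p have separate KlHET and WT ranges among control and among NMES libraries, while miR-146b-5p has a single WT control library far above the others.

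The let-7 family, developmental timing miRNAs that all carry the seed GAGGUAG, was lower in KlHET control EVs for 5 of its 8 tested members and higher for none, beside 16.3% called lower over all 129 miRNA entries. Its median log2 difference was -1.09, beside -0.21 over all entries, and without J3517 and A3206 2 members were called lower. let-7f-5p had 5430, 8972 and 14923 CPM in KlHET control libraries, against 18013, 24992 and 116494 CPM in WT control libraries (-2.08, SE 0.41, adjusted p = 0.0005). let-7b-5p had 6478, 15554 and 18645 CPM in KlHET control libraries, against 20123, 23046 and 57728 CPM in WT control libraries (-1.16, SE 0.33, adjusted p = 0.011). The ranges of both were separate, and both remained called without J3517 and A3206, at -1.41 (adjusted p = 0.0062) and -1.17 (adjusted p = 0.018). let-7a-5p, let-7c-5p and let-7e-5p were called at -1.24, -0.92 and -2.38, but without those 2 libraries their differences were -0.62 (adjusted p = 0.21), -0.56 (adjusted p = 0.068) and -0.84 (adjusted p = 0.40). A3206 held the highest WT control level of all 3, and the family median without both libraries was -0.59. None of the let-7 members was called in the NMES libraries, where let-7f-5p differed by -0.44 (adjusted p = 0.62). The family median between KlHET NMES and WT NMES libraries was 0.12.

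miR-328-3p was the higher miRNA called under all 27 alternatives tried for it, as miR-10a-5p, miR-10b-5p, miR-100-5p and let-7f-5p were among the lower ones. miR-328-3p had 1273, 3038 and 13841 CPM in KlHET control libraries, against 543, 812 and 1387 CPM in WT control libraries, with 7 of 8 KlHET libraries above every WT library (log2 difference 2.50, SE 0.55, adjusted p = 0.0017). miR-326-3p, a miRNA known from brain and immune cells, had 0, 809 and 2593 CPM in KlHET control libraries, against 0, 161 and 259 CPM in WT control libraries (3.04, SE 0.85, adjusted p = 0.01). It was a low-count entry, with a median of 13.5 counts in KlHET and 5.5 counts in WT control libraries, and 7 of 8 KlHET libraries again exceeded the WT maximum. In NMES libraries miR-328-3p differed by 0.93 and miR-326-3p by 1.57 (adjusted p = 0.34 for both), so neither was called there.

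miR-320-3p, an abundant plasma miRNA cut from its hairpin without Drosha, had 3239, 19048 and 69778 CPM in KlHET control libraries, against 2897, 7139 and 13072 CPM in WT control libraries (1.89, SE 0.54, adjusted p = 0.011). miR-221-3p, an endothelial and smooth muscle miRNA, had 110, 1000 and 16741 CPM in KlHET control libraries, against 345, 784 and 1256 CPM in WT control libraries (2.47, SE 0.78, adjusted p = 0.019). J3549 and J3578 were the 2 highest KlHET control libraries for miR-328-3p, miR-326-3p, miR-320-3p and miR-221-3p. Without J3549 and J3578 the difference of miR-221-3p was 0.14 (adjusted p = 0.87), that of miR-320-3p 0.80 (adjusted p = 0.18), that of miR-326-3p 2.26 (adjusted p = 0.054) and that of miR-328-3p 1.42 (adjusted p = 0.025). The partner of miR-221-3p with the same seed, miR-222-3p, differed by -1.27 (adjusted p = 0.17).

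miR-192-5p, an epithelial miRNA of liver, gut and kidney, had 2954, 8105 and 13419 CPM in KlHET control libraries, against 2771, 3028 and 4957 CPM in WT control libraries (1.23, SE 0.35, adjusted p = 0.01), and its ranges overlapped. miR-423-3p had 6181, 11382 and 16125 CPM in KlHET control libraries, against 4739, 6077 and 7843 CPM in WT control libraries (0.82, SE 0.28, adjusted p = 0.029). Both missed the threshold without J3517 and A3206, at 1.01 and 0.78 (adjusted p = 0.062 for each). The liver miRNA miR-122-5p ran the other way, with 4877, 32003 and 37480 CPM in KlHET control libraries, against 17698, 51445 and 202238 CPM in WT control libraries (-1.52, SE 0.54, adjusted p = 0.036). It missed the threshold under 10 of 27 alternatives.

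2 vascular miRNAs were lower. The endothelial miR-126a-3p had 2093, 3587 and 4281 CPM in KlHET control libraries, against 3935, 5998 and 8889 CPM in WT control libraries (-0.87, SE 0.26, adjusted p = 0.015). The smooth muscle miR-143-3p had 6045, 10228 and 20360 CPM in KlHET control libraries, against 11778, 21972 and 28781 CPM in WT control libraries (-0.96, SE 0.29, adjusted p = 0.015). Their ranges overlapped, and both were also called without J3517 and A3206, at -0.89 (adjusted p = 0.033) and -1.12 (adjusted p = 0.016). Of 27 alternatives, miR-126a-3p missed the threshold under 7 and miR-143-3p under 10.

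Tissue-linked lists of miRNAs are given beside the 8.53% called higher and 16.3% called lower over all miRNA entries, and each list had at most 6 tested members. Of the erythroid list, which includes miR-451a and miR-486a-5p, none of 6 tested members was called by edgeR, and their median difference was -0.49. In the list of leukocytes and platelets none of 4 was called (median -0.16), and in the muscle list neither miR-1a-3p (-1.12, adjusted p = 0.13) nor miR-206-3p (0.35, adjusted p = 0.68) was called. The endothelial and vessel wall list had 1 of 4 higher and 2 lower (median -0.92), the liver list 1 of 4 higher and 1 lower (median 0.49), and the kidney and choroid plexus list 1 of 5 higher and none lower (median 0.48). Without J3517 and A3206 the endothelial and vessel wall list again had 1 higher and 2 lower, the liver list 0 higher and 1 lower, and the kidney and choroid plexus list 0 called by edgeR. miR-192-5p was the higher member of the liver and of the kidney and choroid plexus list, and the pancreas and gut list had only miR-375-3p tested (-0.27, adjusted p = 0.67). Summed over the erythroid list, levels were 47151 to 149641 CPM in KlHET control libraries (median 62272). In WT control libraries they were 60331 to 128430 CPM (median 91764). The ranges overlapped, the KlHET control median was the lower, and the sums are relative to the miRNA class.

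In the neuronal list the calls depended on WT control library A3206. Of 5 tested members 3 were called lower, beside 16.3% over all miRNA entries, namely miR-9-5p (-4.66, adjusted p = 0.01), miR-128-3p (-3.17, adjusted p = 0.01) and miR-7a-5p (-2.34, adjusted p = 0.015). miR-128-3p had 732, 2477 and 4369 CPM in KlHET control libraries, against 1611, 2040 and 116380 CPM in WT control libraries, the highest being A3206. The WT control maximum of miR-9-5p, 39636 CPM, was A3206 as well. With J3517 and A3206 left out, the median of the list was 0.11 in place of -2.34, and miR-128-3p differed by 0.19 (adjusted p = 0.85). No member was then called lower by edgeR, and 1 was called higher, miR-127-3p (2.42, adjusted p = 0.033). The median of the list between KlHET NMES and WT NMES libraries was 1.69. Summed over the list, the highest WT control level was 219144 CPM and the median 5551 CPM, against a highest level of 21484 CPM and a median of 6379 CPM in KlHET control libraries.

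In 2 further lower miRNAs, WT control library A3202 stood far above the others. miR-146b-5p, an inflammation-linked miRNA, had 615, 1370 and 2387 CPM in KlHET control libraries, against 2319, 3746 and 74969 CPM in WT control libraries (-3.51, SE 0.64, adjusted p = 0.00021). Without A3202 its difference was -1.28 (adjusted p = 0.014). miR-203-3p, a miRNA of stratified epithelium, had 275, 1303 and 1851 CPM in KlHET control libraries, against 388, 1419 and 37484 CPM in WT control libraries (-2.85, SE 0.77, adjusted p = 0.01), and without A3202 it differed by -1.08 (adjusted p = 0.24). miR-146a-5p, with the seed of miR-146b-5p, differed by 0.01 (adjusted p = 0.99).

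4 of the 11 higher calls were entries with miRBase numbers of 5000 and above: miR-8117, miR-8109 and the precursors mir-6240 and mir-6236. miR-8117 had 43440 counts in J3517 and 13 to 33 counts in the other KlHET control libraries, against 4 to 35 counts in WT control libraries. They were 4 of 16 tested entries of this kind, beside 8.53% called higher over all 129 miRNA entries. All 16 had a positive difference (median 0.89), beside 55 of all 129 (median -0.21). Without J3517 and A3206 none of the 16 was called by edgeR, beside 6.02% called higher over all miRNA entries, and their median was 0.66. miR-8109 changed sign there, at -0.27 (adjusted p = 0.85).

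**Figure D2:**
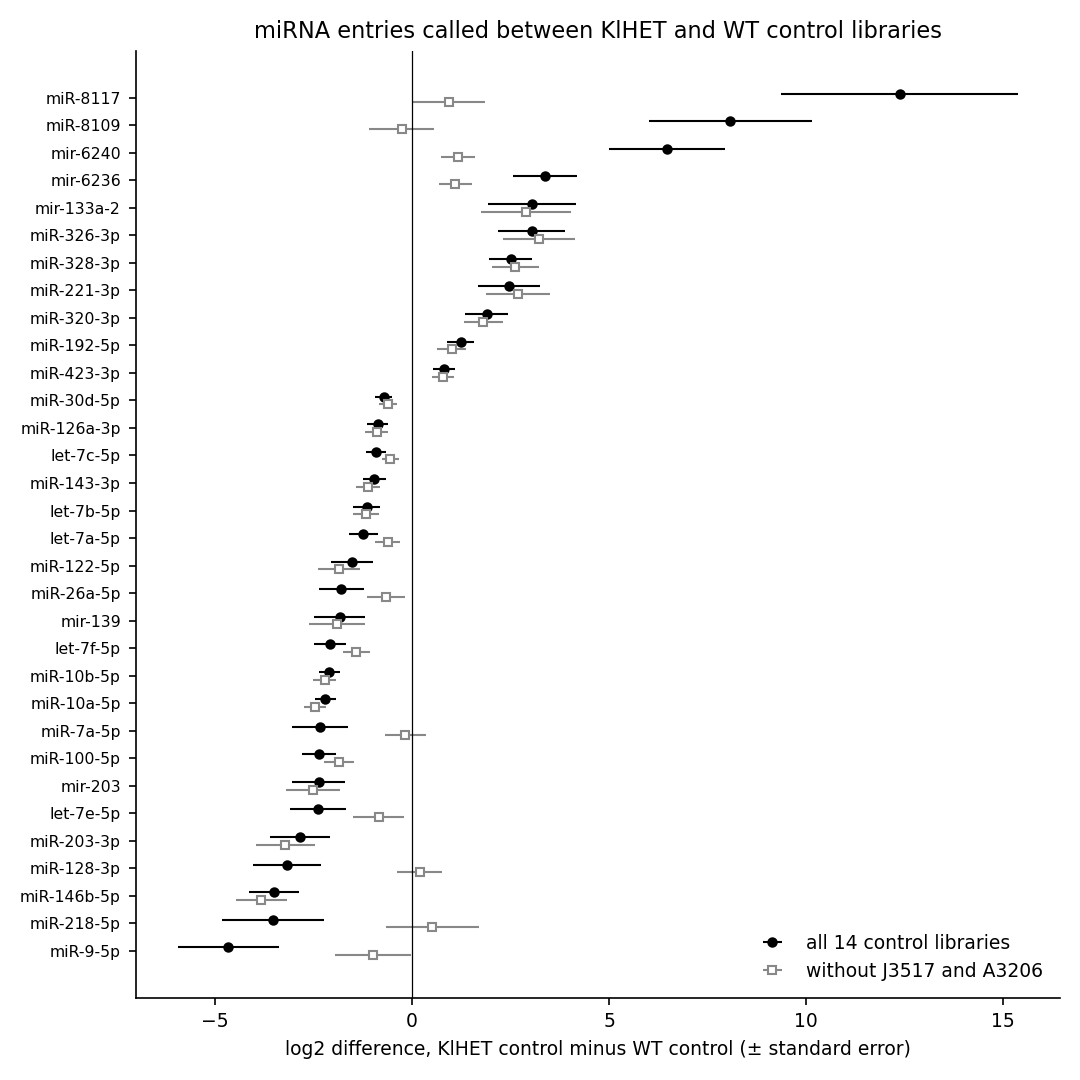
Log2 difference (KlHET control over WT control) with its SE for the 32 called miRNA entries, from all libraries and without J3517 and A3206. miR-10a-5p and miR-10b-5p keep their position, while miR-8117, at 12.37 with all libraries, lies at 0.94 without the 2.

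Across the 32 called miRNA entries, 10 of 11 higher and 19 of 21 lower entries had the same sign without J3517 and A3206, and 4 and 11 of them were called there. In the NMES libraries 10 of the 11 and 15 of the 21 had the same sign. No miRNA entry was called higher by edgeR between KlHET NMES and WT NMES libraries (0% of 129; 10 had an unadjusted p under 0.05), and 4 (3.1%) were called lower, of which miR-10a-5p and miR-10b-5p were lower in both comparisons. The genotype difference itself differed between control and NMES mice for 3 of 129 miRNA entries (2.33%): miR-9-5p and miR-128-3p, both highest in A3206 among WT control libraries, and miR-7a-5p. Ranges without overlap, with KlHET control below WT control, were found for 5 of 129 entries (3.88%) and the reverse for none (0%). A scaling over all RNA classes together moved the median miRNA difference to -0.93 and the calls to 6 higher and 29 lower. TMMwsp, a variant of TMM that handles zero counts differently, moved them the other way, to a median of 0.04 with 19 higher and 12 lower, and leaving out A3206 alone gave 15 higher and 10 lower. The balance of higher and lower miRNA calls therefore depended on the scaling and on A3206, and a miRNA difference is relative to the miRNA class.

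tRNA entries, which in small RNA libraries report mostly fragments of mature tRNAs, showed many differences that depended on J3517, on the tool and on the libraries in the fit. Of 341 tested entries, 44 (12.9%) were called higher and 25 (7.33%) lower in KlHET control libraries. Gene copies of a tRNA share sequence, and the 341 entries held 241 distinct count profiles. Without J3517 and A3206 none was called higher by edgeR (0%; 19 of 345 had an unadjusted p under 0.05) and 17 were called lower (4.93%; 45 at an unadjusted p under 0.05). The median of the 44 higher entries was 4.93 with all libraries and -0.43 without both, and 25 of them then had a negative difference. The 25 lower entries had a median of -2.10 with all libraries and -1.63 without both, all of them negative, and 11 were called there. DESeq2 on all libraries called 0 higher and 27 lower. A fit of only the 14 control libraries called 0 by edgeR (49 higher and 24 lower at an unadjusted p under 0.05), and so did a fit without A3202 and A3206 (75 higher and 18 lower).

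Glutamine and alanine tRNAs made up most of the higher group, with 16 of 17 tested glutamine entries and 12 of 35 alanine entries called higher. Over all 341 tRNA entries 12.9% were called higher. tRNA-Gln-CTG-5-1 had 3, 12.5 and 680 counts in KlHET control libraries, against 1, 7.5 and 11 counts in WT control libraries (log2 difference 5.49, SE 1.39, adjusted p = 0.019). The 680 counts were those of J3517, the other KlHET control libraries reached at most 19, and without J3517 and A3206 the difference was 0.49 (adjusted p = 0.73). tRNA-Ala-AGC-5-1 had 4980 counts in J3517 and at most 113 in the other KlHET control libraries, against 17 to 68 counts in WT control libraries (5.68, SE 1.59, adjusted p = 0.02). It lay lower in KlHET control libraries without J3517 and A3206, at -0.69 (adjusted p = 0.58).

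Alanine and valine tRNAs made up most of the lower group. Of 35 tested alanine entries 11 were called lower and 12 higher, and of 18 valine entries 7 were called lower. Of 26 lysine entries 7 were called lower and 1 higher. Over all 341 tRNA entries 7.33% were called lower. When J3517 and A3206 were left out, 16 alanine, 0 valine and 0 lysine entries were called lower by edgeR, beside 4.93% over all tRNA entries. The valine median was then -1.23 in place of -1.61. tRNA-Ala-TGC-8-1 had 0, 6.99 and 19.1 CPM of the tRNA class in KlHET control libraries, against 10.3, 52.3 and 900 CPM in WT control libraries, where A3202 was the highest (-4.45, SE 0.81, adjusted p = 0.0027). Its counts were low, with a median of 1.5 in KlHET and 15.5 in WT control libraries. tRNA-Ala-AGC-3-1 had 0, 22.1 and 155 CPM in KlHET control libraries, against 36.2, 114 and 866 CPM in WT control libraries (-2.81, SE 0.72, adjusted p = 0.019), and was at -3.65 (adjusted p = 0.0011) without J3517 and A3206. tRNA-Val-CAC-2-1 had 109, 309 and 624.7 CPM in KlHET control libraries, against 342, 636 and 3596 CPM in WT control libraries (-2.10, SE 0.53, adjusted p = 0.019), and tRNA-Val-AAC-1-1 stood at -2.09. Without A3202 and A3206, in which the valine tRNAs were high, tRNA-Val-CAC-2-1 differed by -0.56 (adjusted p = 0.41).

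Summed over entries with the same anticodon, 7 of 47 anticodons (14.9%) were called higher and 4 (8.51%) lower. Gene copies with identical counts enter such a sum several times. With identical entries counted once, 4 of 47 anticodons were called higher and 6 lower, and the median difference was 0.17 in place of 0.49. With all copies summed but without J3517 and A3206, none was called higher by edgeR (0%; 6 at an unadjusted p under 0.05). In that fit 1 was called lower (2.13%), Ala-TGC. Ala-TGC had 2968, 4408 and 8251 CPM in KlHET control libraries, against 4588, 9127 and 11385 CPM in WT control libraries (-0.86, SE 0.22, adjusted p = 0.011), and -0.91 (adjusted p = 0.0027) without both. Its NMES difference was -0.58 (adjusted p = 0.22). Val-CAC had 1109, 1855 and 3929 CPM in KlHET control libraries, against 2351, 3410 and 22480 CPM in WT control libraries (-2.04, SE 0.51, adjusted p = 0.011), and Val-AAC differed by -1.95 (adjusted p = 0.011). Without A3202 and A3206 no anticodon was called by edgeR, 11 higher and 1 lower having an unadjusted p under 0.05, and Ala-TGC was at -0.92 (adjusted p = 0.11), Val-CAC at -0.46 (adjusted p = 0.54).

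**Figure D3:**
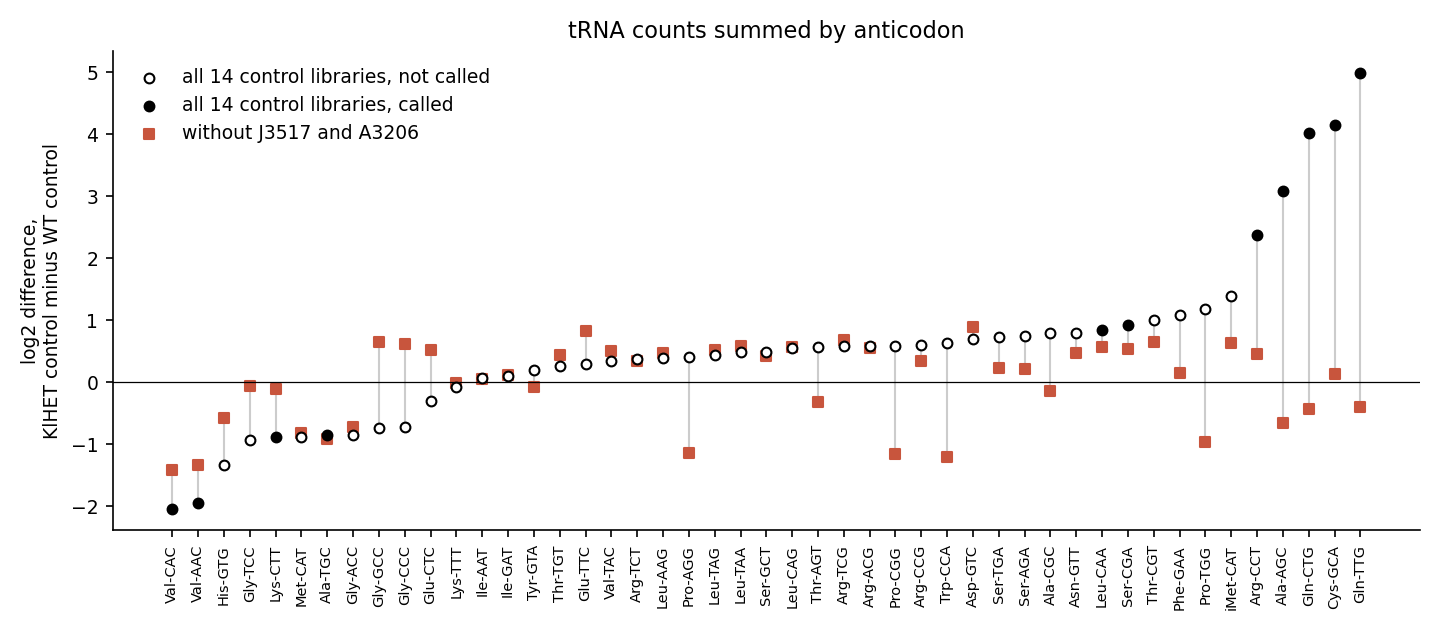
Log2 difference (KlHET control over WT control) for the 47 tested tRNA anticodons, from all libraries and without J3517 and A3206. Each vertical line joins the 2 values of an anticodon, and no SE is drawn. The glutamine, cysteine and Ala-AGC sums at the high end move to near 0 or below without the 2 libraries, while Ala-TGC stays at -0.91.

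snRNAs and snoRNAs were tested together. U1 and U2 snRNAs are parts of the spliceosome that pair with the 5′ splice site and the branch point of introns, and many of the tested entries are predicted genes that resemble them. Of 93 entries, 23 (24.7%) were called higher and 1 (1.08%) lower in KlHET control libraries. The 93 entries held 81 distinct count profiles, and with identical entries counted once 18 of 81 were called higher and 3 lower. Without J3517 and A3206 none of 97 was called by edgeR in either direction (0%; 17 higher and 11 lower at an unadjusted p under 0.05). Entries were placed in a family when they matched its named gene with at least 90% identity over at least 50 bases.

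All 22 tested U2-family entries were called higher, but they held 19 distinct count profiles. Gm24840 (GRCm38, chr5:123628201-123628347, +) is shown because its bases 1 to 57, in capitals, are identical to the start of Rnu2-10 (chr11:101658238-101658428, +), so that a read within them fits both.
Gm24840: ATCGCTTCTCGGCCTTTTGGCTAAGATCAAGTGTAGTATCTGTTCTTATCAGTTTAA

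Gm24840 had 85, 158 and 2896 counts in KlHET control libraries, against 51, 73 and 319 counts in WT control libraries (log2 difference 4.98, SE 1.12, adjusted p = 0.0014). J3517 held the 2896 counts, and the next KlHET control library had 179. Without J3517 and A3206 the difference was 1.16 (adjusted p = 0.091), and Gm22958, at 4.23 with all libraries, was at 1.12. Summed over the U2 family, entries held 2586 to 61861 CPM of all counts (without TMM) in KlHET control libraries (at most 4879 without J3517). The sums were 1674 to 8064 in WT control libraries. Rnu2-10, Gm23971, Gm23849 and Gm24950 had the same 10144 counts each over the 14 control libraries. Such a sum may therefore count a read several times and is not a share of reads. The U2 family's median difference was 5.01 with all libraries, 0.94 without both and 1.19 in the NMES libraries.

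U1-family entries had a median difference of -0.72, with 1 of 36 called lower and none higher. Gm26110 (chr1:171027965-171028129, +), 97.0% identical to Rnu1b1 over 164 bases, had 387, 1819 and 2467 CPM in KlHET control libraries, against 2022, 3497 and 7558 CPM in WT control libraries (-1.42, SE 0.52, adjusted p = 0.037). The difference was -1.13 (adjusted p = 0.15) without J3517 and A3206. Rnu1b1 itself differed by -1.22 (SE 0.52, adjusted p = 0.074). Under 15 of 26 alternatives Rnu1b1 was called lower, while Gm26110 missed the threshold under 14 of 26, so which U1 entry was called depended on the processing. The 36 U1-family entries held 30 distinct count profiles, so their sum may also count a read several times. It was 136 to 5981 CPM of all counts in KlHET control libraries, with J3517 lowest. In WT control libraries it was 2315 to 10720, with A3206 highest. The other called entry, the C/D box snoRNA Snord57, a guide for methylation of ribosomal RNA, had 0, 1436 and 4825 CPM in KlHET control libraries, against 0, 387 and 1261 CPM in WT control libraries (1.81, SE 0.66, adjusted p = 0.039). Snord57 missed the threshold under 22 of 25 alternatives, with differences from 0.44 to 2.13.

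**Figure D4:**
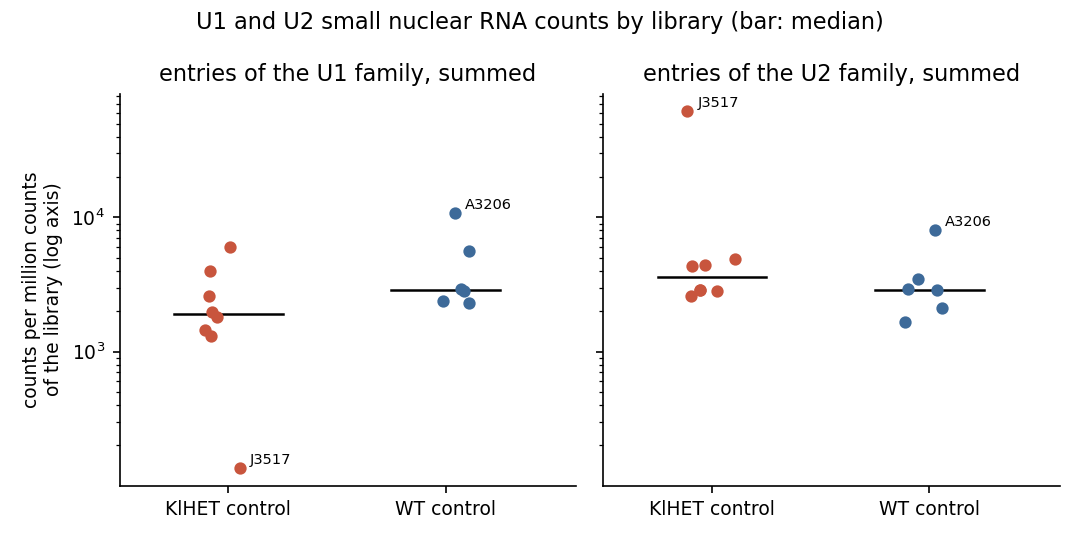
CPM of all counts, summed over the entries of the U1 and of the U2 family, in each of the 14 control libraries. The axis is a log axis, with KlHET control left of WT control. Some entries have identical counts, so a sum may count a read several times. J3517 is the highest KlHET control library for U2 (61861) and the lowest for U1 (136), and A3206 is the highest WT control library for both.

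A scaling over all RNA classes together changed the snRNA and snoRNA calls to 9 higher and 24 lower and moved their median difference to -1.06, in place of 0.01. TMMwsp gave 22 higher and 9 lower, and DESeq2 2 higher and 21 lower, so the balance of the 2 directions in this class depended on the scaling and the tool.

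circRNAs, in which a splice junction joins the end of an exon to an earlier start, held most counts in most libraries, but short reads assigned to a circRNA entry need not span its junction. Of 7008 tested entries, 132 (1.88%) were called higher and 59 (0.842%) lower in KlHET control libraries. With J3517 and A3206 left out, 1 of 7062 (0.0142%) was called higher and 23 (0.326%) lower. J3517 was the highest KlHET control library for 111 of the 132 higher entries and held over 50% of the KlHET control counts of 96, and the median of these entries was 3.74 with all libraries and 1.10 without both. The higher calls also depended on single WT control libraries: 0 were called by edgeR without A3200 (580 at an unadjusted p under 0.05), without A3204 (564) or without A3206 (589), 4 without A3202 and 9 without A3208, while 24 to 33 lower calls were made in these fits. A fit of only the 14 control libraries called 0 higher (441 at an unadjusted p under 0.05) and 5 lower. The 59 lower entries had a median of -1.73 with all libraries and -1.33 without both. Host genes of the entries are not named in the table, so they are given by identifier.

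mmu_circ_0010180 had 49.8, 191 and 602 CPM of the circRNA class in KlHET control libraries, against 1024, 1711 and 2010 CPM in WT control libraries (log2 difference -2.64, SE 0.42, adjusted p = 0.0042), with separate ranges. In NMES libraries it differed by -2.78 (adjusted p = 0.00052). Its counts matched those of miR-10b-5p, exceeding them by 0 to 20 counts in each of the 28 libraries, with 15920 counts against 15741 in all. mmu_circ_0016169 (-2.72, SE 0.53, adjusted p = 0.013) likewise exceeded let-7f-5p by 18 to 144 counts in every library, with 19743 counts against 18269. Whether the same reads were counted in both entries was not tested, and the circRNA values are given as no separate measurement. Such a match was found for 3 of the 7008 tested circRNA entries.

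mmu_circ_0015312 had 12.3, 26.9 and 54 CPM in KlHET control libraries, against 68.3, 120 and 376 CPM in WT control libraries (-2.52, SE 0.43, adjusted p = 0.0076), with separate ranges, and was at -2.17 (adjusted p = 0.0051) in NMES libraries. mmu_circ_0015314, whose counts are identical to those of mmu_circ_0015315, had 27, 42.9 and 60.5 CPM in KlHET control libraries, against 71.9, 134 and 392 CPM in WT control libraries (-2.04, SE 0.37, adjusted p = 0.0076). The consecutive entries mmu_circ_0015312 to mmu_circ_0015315 and mmu_circ_0010180 were the 5 circRNA entries called under every alternative. In contrast, mmu_circ_0004546 had 39593 counts in J3517 and a median of 92 in KlHET control libraries, against a median of 21.5 in WT control libraries (9.11, SE 1.99, adjusted p = 0.023), and missed the threshold without J3517 and A3206 (3.99, adjusted p = 0.10). mmu_circ_0010499 had 7, 27.5 and 6315 counts in KlHET control libraries, against 7, 13 and 21 counts in WT control libraries (7.26, SE 1.55, adjusted p = 0.021), and was at 3.22 (adjusted p = 0.099) without both. mmu_circ_0007724 differed by 2.12 (SE 0.47, adjusted p = 0.023), and by 1.59 (adjusted p = 0.094) without both.

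Between KlHET NMES and WT NMES libraries 15 circRNA entries (0.214%) were called higher and 110 (1.57%) lower. Of these, 2 higher and 17 lower entries were called in the same direction between control libraries. No tRNA, snRNA or snoRNA entry was called by edgeR in the NMES libraries, where 8 tRNA entries were higher and 21 lower, and 7 snRNA or snoRNA entries higher and 3 lower, at an unadjusted p under 0.05.

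The share of all counts that fell in each RNA class was compared by an exact two-sided permutation test over the 8 KlHET control and 6 WT control libraries. miRNAs made up 2.43% ± 1.14 in KlHET control libraries and 3.17% ± 0.79 in WT control libraries (SD, exact permutation p = 0.19, adjusted p = 0.84 over 5 classes). circRNAs made up 71.1% ± 12.1 in KlHET control and 68.8% ± 18.6 in WT control libraries, and tRNAs 25.04% ± 12.9 in KlHET control and 27.1% ± 18.03 in WT control libraries. The adjusted p was 0.84 for each of the 5 classes by the exact permutation test. With each library thinned to 693735 counts, 97 to 431 miRNA entries were detected in KlHET control libraries (median 239) and 253 to 388 in WT control libraries (median 303). The exact permutation p of this difference was 0.21, and the adjusted p was between 0.38 and 0.89 over the classes.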

How the data were processed

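Per the labels and the study's methods, EVs were purified from plasma with a commercial kit, their small RNA was sequenced as single-end reads, and the authors aligned reads with STAR 2.5.3a to mm10 and counted them with COMPSRA. The authors deposited 1 table of read counts per RNA entry, not normalized, for 28 libraries, and all its columns were mapped. Their DESeq2 (1.42.1) results were not used here. How COMPSRA treated reads that fit several entries is not given in the sources used here.

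Each RNA class was filtered with filterByExpr, scaled by TMM and fitted with edgeR 4.0.16 (limma 3.58.1, R 4.3.3) as 1 mean per group over all 28 libraries. The quasi-likelihood test compared KlHET control with WT control, with Benjamini-Hochberg adjustment within the class and a threshold of 0.05. The interaction tested that difference against KlHET NMES minus WT NMES. SEs are the log2 difference over the square root of F. The pipeline was tested on simulated data. snRNA families came from BLAST 2.17.0 against GENCODE vM21. A circRNA entry was matched to a small RNA with at least 280 counts when it was never lower in any library and exceeded it by at most 10% in all. Class shares and numbers detected were tested with scipy 1.17.1 by exact permutation (smallest possible p 0.000666).

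The RNAs named were those with the smallest p in each direction, with all libraries and without J3517 and A3206, the most counted entries, and members of the miRNA lists. The members, lists and rules were chosen with earlier results of these data known. Alternatives changed the tool (DESeq2 1.42.0), scaling, filter, dispersion and libraries. The labels give separate libraries per group but no animal numbers, and read counts are not independent molecules, so p-values measure only the spread between these libraries, which may be partly technical. RefSeq sequences were matched by miRNA name for 92 of 110 mature arms tested.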

Additional observations from a re-analysis of the deposited data

Results flagged for a closer look

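98 sets of values, each from 1 group and 1 named RNA, class share or total, were searched for a library that stood apart by the ratio of its gap to the range of the group (Dixon's ratio). Chance would mark about 1 in 20 sets that were independent and chosen without these values. That rate does not apply here, since many RNAs were named for their small p in these data and class shares are linked. 20 sets were marked, and in 16 of them the library was J3517 or A3206.

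J3517 was the highest KlHET control library for Gm22958 (0.758), Gm24840 (0.815), tRNA-Ala-AGC-5-1 (0.651), tRNA-Gln-CTG-5-1 (0.792) and miR-8117 (0.886), and for the share of counts from snRNAs (0.909). It was the lowest for Snord57 (0.763), let-7a-5p (0.533) and miR-326-3p (0.778). A3206 was the highest WT control library for let-7c-5p (0.685), miR-128-3p (0.891), the tRNA share (0.815), the snoRNA share (0.949), the snRNA share (0.77) and the total counts (0.791), and the lowest for the circRNA share (0.802). The others were miR-146b-5p, highest in WT control library A3202 (0.853), Snord57, lowest in WT control library A3200 (0.68), miR-122-5p, lowest in KlHET control library J3549 (0.672), and the snoRNA share, highest in KlHET control library J3578 (0.74).

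Among the named RNAs searched, the genotype difference differed between control and NMES mice, by the interaction term of edgeR's quasi-likelihood fit, for miR-128-3p (-4.86 on the log2 scale), miR-9-5p (-7.74) and tRNA-Ala-AGC-5-1 (7.24). The first 2 were highest in A3206 and the last in J3517. Over all tested entries the interaction was called for 3 of 129 miRNAs, miR-7a-5p being the third, and for 9 of 341 tRNAs.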

How the results depend on the processing

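The log2 differences under alternatives were tallied for part of the named RNAs, leaving out miR-8109, mir-6240, mir-6236, miR-7a-5p and miR-127-3p among others. Of the tallied values, 910 kept their direction and side of the threshold, 188 missed the threshold, 15 newly passed it and 6 changed sign. Among the 32 called miRNA entries, tallied or not, 2 higher and 3 lower entries changed sign under an alternative. The calls with all libraries numbered 191 circRNA, 32 miRNA, 69 tRNA, 24 snoRNA or snRNA and 11 anticodon entries. DESeq2 called 27 tRNA entries, 0 higher and 27 lower in place of 44 and 25, and 6 anticodons, 2 higher and 4 lower in place of 7 and 4. TMMwsp called 33 tRNA entries higher and 31 lower, and 19 miRNA entries higher and 12 lower in place of 11 and 21. Library size alone as the scaling gave 81 circRNA, 14 miRNA and 30 tRNA calls, and 0 by edgeR for snoRNAs and snRNAs (9 higher and 17 lower at an unadjusted p under 0.05) and for anticodons (5 and 2). A robust fit gave 81 circRNA calls. Only the 14 control libraries gave 5 circRNA and 20 miRNA calls, and 0 by edgeR for tRNAs (49 higher and 24 lower at an unadjusted p under 0.05), snoRNAs and snRNAs (15 and 15) and anticodons (6 and 4). Without both J3517 and A3206 there were 24 circRNA, 20 miRNA and 17 tRNA calls, 0 snoRNA or snRNA calls and 1 anticodon call. Without both A3202 and A3206 there were 22 circRNA calls, and 0 by edgeR for tRNAs (75 higher and 18 lower at an unadjusted p under 0.05) and anticodons (11 and 1). This setting, the one without J3549 and J3578, and counting identical entries once were chosen after seeing the data. The cause of these changes was not tested.

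Leaving out 1 control library at a time gave 24 to 256 circRNA calls (76 without A3198, 25 without A3200, 37 without A3202, 27 without A3204, 24 without A3206, 40 without A3208 and 51 without J3517). Of these, the higher calls numbered 28 without A3198, 0 by edgeR without A3200, A3204 or A3206 (580, 564 and 589 at an unadjusted p under 0.05), 4 without A3202, 9 without A3208 and 13 without J3517, in place of 132. tRNA calls ran from 20 (J3517) to 82 with 41 without A3204, snoRNA and snRNA calls from 0 (J3517; 9 higher and 18 lower at an unadjusted p under 0.05 by edgeR) to 33, and anticodon calls from 1 (A3206) to 16, with 7 without A3198, 2 without A3200 or A3202, 6 without A3204 or J3515 and 3 without J3517.

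miR-128-3p changed sign, at 0.188 without both J3517 and A3206 and 0.09345 without both A3202 and A3206, and ran from -3.313 to 0.2589 (without A3206) when 1 library was left out. tRNA-Ala-AGC-5-1 changed sign at -0.4157 by DESeq2 and -0.6864 without both J3517 and A3206, and ran from -0.3231 (without J3517) to 5.875.

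Differences of class shares, none past the threshold, changed sign without both J3517 and A3206, at -6.044 percentage points for circRNAs, 7.069 for tRNAs and 0.01688 for snoRNAs. When 1 library was left out they ran from -5.148 to 4.776 for circRNAs, -4.681 to 5.228 for tRNAs, -0.08254 to 0.009838 for snoRNAs and -0.1951 to 0.7187 for snRNAs.

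No paired analysis was possible because the labels give no replicate numbers that KlHET and WT libraries share.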
